A study of Homo sapiens with 4 samples.

Results

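The Polycomb repressive complex genes EZH1, EZH2, SUZ12, EED, JARID2, RING1, RNF2, BMI1 and CBX8 were examined in 786-O cells. The cells were controls or had a knockout of DEK, which encodes a chromatin protein. The members were chosen by symbol, with earlier results of these data known, and all 9 were found among the 59409 genes measured. 786-O is a human renal carcinoma line without a functional VHL protein. All 4 libraries were of polyadenylated RNA. The labels give the 2 control libraries as wild-type negative controls and name their columns after Cas9. The 2 DEK KO libraries came from cells that expressed Cas9, were infected with a lentivirus carrying guides against DEK and were cloned by single-cell sorting. The Cas9-expressing parent was itself a clone, and which knockout clone each library came from is not given in the sources used here. Libraries are named here control 1, control 2, knockout 1 and knockout 2 after their replicate numbers.

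Polycomb proteins keep genes silent through 2 complexes that modify histone tails. PRC2 methylates lysine 27 of histone H3 (H3K27) with EZH2 or its paralog EZH1, which are active only together with SUZ12 and EED, and JARID2 is an accessory subunit that helps recruit the complex. PRC1 ubiquitinates histone H2A through RING1 or RNF2 (RING1B), each paired with a subunit of the PCGF family such as BMI1. In its canonical form PRC1 also holds a CBX protein such as CBX8, which binds methylated H3K27. The E2F factors that drive the cell cycle are known regulators of EZH2 and EED, so the PRC2 core tends to be high in dividing cells.

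The RefSeq windows of 250 bases before and 50 after the transcription start (GRCh38.p14) held an entry for 8 of the 9 genes. EZH2, JARID2 and BMI1 had 2 starts each, which made 11 windows. The bases before the most upstream start are shown for JARID2, which had the only called change, for BMI1, which had the largest log2 fold change in size, and for EZH2 and SUZ12 of the PRC2 core. They are written 5′ to 3′ on the strand of the gene and were cut where an annotated exon begins. Capitals mark, on either strand, the GC box GGGCGG, the CCAAT box CCAAT, the TATA box TATAAA and the E2F sequences TTTCCCGC, TTTCGCGC, TTTGCCGC and TTTGGCGC. Overlapping GC boxes run together in BMI1 and EZH2, and the last GC box of SUZ12 runs past the end of the stretch.
JARID2 (chr6:15245819-15246068, plus strand): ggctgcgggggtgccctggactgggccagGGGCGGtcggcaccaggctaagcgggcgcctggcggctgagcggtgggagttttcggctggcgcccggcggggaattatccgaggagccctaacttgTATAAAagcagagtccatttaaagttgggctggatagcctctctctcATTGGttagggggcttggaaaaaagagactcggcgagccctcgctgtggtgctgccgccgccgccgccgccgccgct
BMI1 (chr10:22320849-22321098, plus strand): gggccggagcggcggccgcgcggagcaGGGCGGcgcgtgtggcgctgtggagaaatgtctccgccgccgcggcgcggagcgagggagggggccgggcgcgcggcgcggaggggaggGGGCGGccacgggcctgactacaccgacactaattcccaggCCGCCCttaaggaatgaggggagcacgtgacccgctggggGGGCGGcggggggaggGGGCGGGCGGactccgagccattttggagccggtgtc
EZH2 (chr7:148884322-148884541, minus strand): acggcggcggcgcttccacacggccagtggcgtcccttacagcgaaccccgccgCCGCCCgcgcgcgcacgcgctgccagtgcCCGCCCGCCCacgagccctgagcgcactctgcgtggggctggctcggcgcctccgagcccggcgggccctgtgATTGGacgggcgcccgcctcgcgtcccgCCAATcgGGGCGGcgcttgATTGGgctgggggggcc
SUZ12 (chr17:31936757-31937006, plus strand): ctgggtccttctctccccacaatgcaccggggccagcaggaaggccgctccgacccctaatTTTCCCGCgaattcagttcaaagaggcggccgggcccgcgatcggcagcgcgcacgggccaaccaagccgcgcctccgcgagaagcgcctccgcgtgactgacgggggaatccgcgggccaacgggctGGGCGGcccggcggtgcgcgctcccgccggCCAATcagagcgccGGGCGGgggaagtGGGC

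These promoters were mostly rich in G and C. GC content was 52.3% in the window of EED and 64.0% to 91.0% in the other 10, against a median of 58.7% over 35116 windows of all genes. CpG dinucleotides numbered 16 in EED and 24 to 65 in the other windows, against a median of 14. An E2F sequence was found in 1 window each of EZH2, SUZ12 and EZH1, and 3.31% of all windows held one. That of SUZ12 is in the stretch above, and that of EZH2 begins just after the start and is not. The upstream window of EZH2 held 4 CCAAT boxes and 4 GC boxes, where 34.6% and 45.0% of all windows held at least 1. The ETS sequence CCGGAAG, in 10.3% of all windows, was in none of the 11. The upstream window of JARID2 held a TATA box (11.5% of all windows) and 1 GC box, where BMI1 had 6 GC boxes in its window and no CCAAT or TATA box. The second window of JARID2 held the cyclic AMP response element TGACGTCA in 2 places, and 1.85% of all windows held it. Such matches describe letters only.

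Values were transcripts per 1000000 (TPM), which are scaled by gene length and to a fixed sum per library. Levels and shares of different genes can be compared only roughly, because the gene length used is not given in the sources used here. A lower TPM can mean less mRNA of the gene per cell or fewer cells that express it, and these cannot be told apart. Each column summed to 1000000. From the steps between low TPM values, depth was approximately 35.8 to 40.1 (in units of 1000000 reads) per library, and the members had approximately 219 reads (CBX8 in knockout 1) to 3611 reads (EZH2 in control 2). Across 15815 tested genes, Pearson's r on log2(TPM + 1) was 0.989 for the pair of controls, 0.980 for the pair of knockouts and 0.941 to 0.964 across groups (genes are not independent replicates). The targeted gene DEK measured 95.0 and 76.3 TPM in controls against 31.4 and 15.7 TPM in knockouts, a fall by 1.89 on the log2 scale (SE 0.33, limma adjusted p = 0.030), so its mRNA was reduced and still present. Without control 1 or control 2 the adjusted p of DEK was 0.22 and 0.19, with no filter on low values it was 0.096, and with a constant variance prior it was 0.056. Of 8 renal carcinoma markers, 6 passed the filter (PAX8 at 140 to 160 TPM), and CA9 and NDUFA4L2 stayed under 1 TPM. Of those 6, 1 rose (KRT18, log2 fold change 0.42, limma adjusted p = 0.025) and 1 fell (PAX2, by 1.08 on the log2 scale, adjusted p = 0.027). Among all tested genes 9.06% rose and 8.67% fell at an adjusted p under 0.05. Of 9 markers of leukocytes, endothelium, fibroblasts and hepatocytes, 8 were under 1 TPM in all libraries, and the list summed to 1.96 and 2.24 TPM in the controls and 2.69 and 1.76 TPM in the knockouts. The labels do not say whether cultures or clones were separate within a group, so p-values reflect only how far these libraries lay apart, and that distance may be technical.

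JARID2 rose in DEK knockout cells, while no PRC2 core or PRC1 gene of the 9 passed the test. All 9 genes passed the filter on low values. With limma's adjusted p at 0.05, 1 of 9 rose and 0 fell, against 17.7% of all tested genes called in either direction, 9.06% rising and 8.67% falling. Without the adjustment 6 of the 9 had p under 0.05, against 38.3% of tested genes. In 7 of 9 genes (EZH1, EZH2, SUZ12, EED, RNF2, BMI1 and CBX8) both knockouts lay below both controls, which 39% of tested genes did. JARID2 was the 1 gene with both knockouts above both controls (29.2% of tested genes), and the groups of RING1 overlapped. The median log2 fold change was -0.31 over the 9 genes and -0.06 over all tested genes. The next smallest adjusted p-values were 0.057 for BMI1, 0.060 for RNF2, 0.064 for SUZ12, 0.071 for EZH2 and 0.12 for EZH1. With either control left out, no tested gene passed, and 2 or 3 of the 9 genes had an unadjusted p under 0.05. Without knockout 1, 4 of the 9 passed (JARID2 upward, SUZ12, EED and RNF2 downward), as did 5289 of the 15815 tested genes. Without knockout 2 there were 2 (JARID2 upward and EZH2 downward), beside 2659 tested genes.

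**Figure D1:**
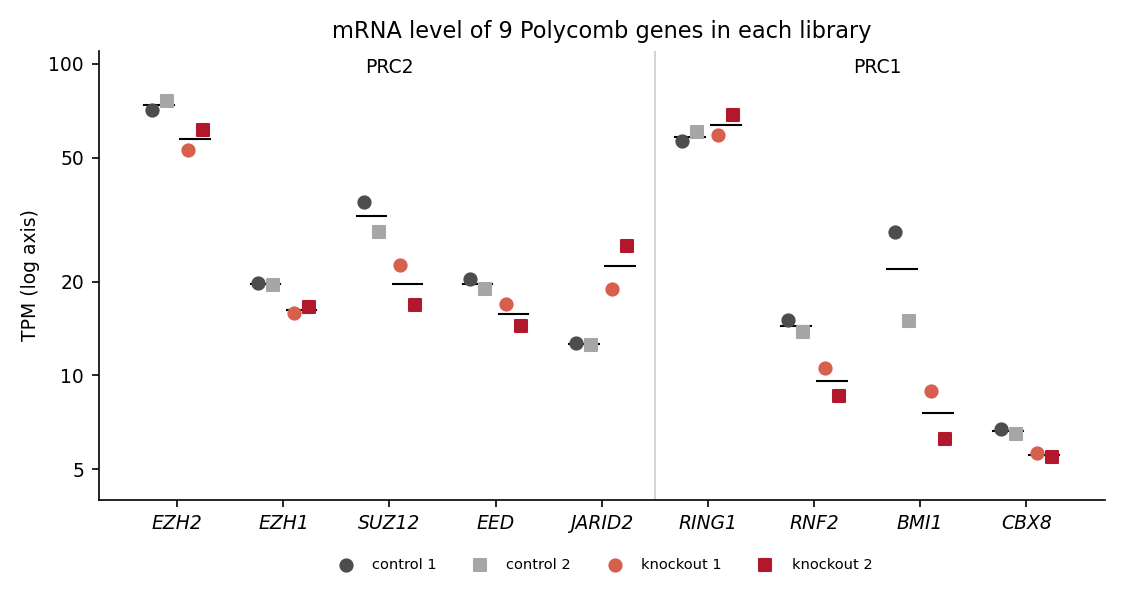
TPM (log axis) of the 9 Polycomb genes in each library, with circles for replicate 1, squares for replicate 2, grey for controls, red for knockouts and lines for group means. JARID2 is the gene with both knockouts above both controls, RING1 overlaps, and in the other 7 both knockouts lie below both controls.

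Among the H3K27 methyltransferases, EZH2 was the more abundant in every library. EZH2 (GRCh38 chromosome 7, 148807383 to 148884321, minus strand) measured 71.2 and 76.0 TPM in controls against 52.9 and 61.5 TPM in knockouts. The mean was 73.6 ± 3.43 TPM in controls and 57.2 ± 6.06 TPM in knockouts (SD, n = 2 per group). Its log2 fold change was -0.36, with SE 0.10, 95% interval -0.63 to -0.10 and limma adjusted p = 0.071. Both knockouts lay below both controls, and knockout 1 was the lower of them. EZH1 (chromosome 17, 42700275 to 42745049, minus strand), the paralog that prevails in resting cells, measured 19.8 and 19.4 TPM in controls against 15.9 and 16.6 TPM in knockouts. Its replicates were close to each other, and its log2 fold change was -0.26 (SE 0.10, 95% interval -0.51 to -0.01, limma adjusted p = 0.12). EZH2 made up 78.2% and 79.6% of the summed TPM of EZH1 and EZH2 in controls, against 76.9% and 78.7% in knockouts. The 2 groups overlapped in that share, while the sum was 91.0 and 95.5 TPM in controls and 68.8 and 78.1 TPM in knockouts.

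SUZ12 and EED, the scaffold and the H3K27me3-binding subunit of the PRC2 core, also had both knockouts below both controls. SUZ12 (chromosome 17, 31937018 to 32001045, plus strand) measured 35.95 and 28.8 TPM in controls against 22.6 and 16.8 TPM in knockouts (log2 fold change -0.69, SE 0.18, 95% interval -1.17 to -0.21, limma adjusted p = 0.064). The controls differed 1.25-fold and the knockouts 1.34-fold, and the knockout nearest to the controls was knockout 1. The related pseudogene SUZ12P1 was at 12.7 and 13.6 TPM in controls and 11.2 and 10.6 TPM in knockouts, and reads of the copies can be misassigned. EED (chromosome 11, 86244544 to 86278813, plus strand) measured 20.3 and 18.9 TPM in controls against 16.9 and 14.4 TPM in knockouts (log2 fold change -0.31, SE 0.12, 95% interval -0.62 to 0.01, limma adjusted p = 0.14), which was -0.20 without knockout 2. In controls EED was at the level of EZH1 and under SUZ12, and in the knockouts the 3 genes lay between 14.4 and 22.6 TPM.

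JARID2 was the member whose change passed the test. JARID2 (chromosome 6, 15246296 to 15522040, plus strand) measured 12.7 and 12.5 TPM in controls against 18.9 and 25.9 TPM in knockouts. The controls were nearly equal and both knockouts lay above them, with knockout 2 the higher. JARID2 rose 1.78-fold, its mean being 12.6 ± 0.133 TPM in controls and 22.4 ± 4.97 TPM in knockouts (SD, n = 2 per group), with a log2 fold change of 0.77 (SE 0.17, 95% interval 0.33 to 1.21, limma adjusted p = 0.045). The rise was 1.50-fold without knockout 2 and 2.06-fold without knockout 1. Its call was lost with no filter on low values (adjusted p = 0.11), with a constant variance prior (0.071), without control 1 (log2 fold change 0.78, limma adjusted p = 0.27) and without control 2 (0.76, adjusted p = 0.24), and over 13 alternatives its adjusted p ranged from 0.0082 to 0.27. Among the 9 genes JARID2 ranked after all but CBX8 by mean TPM in the controls, and in the knockouts only RING1 and EZH2 had higher means. Its knockout values overlapped those of SUZ12, the next in that order.

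Neither RING subunit passed the test, and their estimates had opposite signs. RING1 (chromosome 6, 33208495 to 33212722, plus strand) measured 56.4 and 60.3 TPM in controls against 59.1 and 68.5 TPM in knockouts, so the groups overlapped. Its log2 fold change was 0.12 (SE 0.10, 95% interval -0.14 to 0.39, limma adjusted p = 0.42), and was 0.02 without knockout 2 and 0.23 without knockout 1. RNF2 (chromosome 1, 185045364 to 185102608, plus strand), the paralog that prevails in stem cells, measured 15.1 and 13.8 TPM in controls against 10.6 and 8.62 TPM in knockouts. Both knockouts were below both controls, with a log2 fold change of -0.55 (SE 0.14, 95% interval -0.91 to -0.18, limma adjusted p = 0.060). RNF2 made up 21.1% and 18.6% of the TPM of the pair in controls, against 15.2% and 11.2% in knockouts. By transcript GC content RNF2 (38.1%) was in the lowest of 5 groups of tested genes and RING1 (61.6%) in the highest. With the GC trend removed, the log2 fold change was -0.20 for RNF2 and 0.004 for RING1. The part of GC content in this share was not tested. The summed level of the pair overlapped, at 71.4 and 74.0 TPM in controls and 69.6 and 77.1 TPM in knockouts. An exact permutation test of such a share, 2 libraries against 2, cannot go below p = 0.333 (two-sided), so the shares are given without a test.

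BMI1 had the largest log2 fold change in size of the 9 genes and also the largest ratio between replicates. BMI1 (PCGF4; chromosome 10, 22321211 to 22331484, plus strand) measured 28.8 and 15.0 TPM in controls against 8.95 and 6.23 TPM in knockouts. The controls differed 1.92-fold and the knockouts 1.44-fold, and both knockouts lay below both controls. Its mean was 21.9 ± 9.75 TPM in controls and 7.59 ± 1.92 TPM in knockouts (SD, n = 2 per group). Its log2 fold change was -1.36, with SE 0.34, 95% interval -2.25 to -0.48 and limma adjusted p = 0.057. The control mean was 2.88 times the knockout mean, 1.98 times without control 1 and 3.79 times without control 2. The readthrough gene COMMD3-BMI1 shares 23.4% of the annotated exon bases of BMI1 on the same strand and was listed at 0 in all 4 libraries, so the values of BMI1 are uncertain to that extent. COMMD3, the gene upstream in that readthrough, stood at 25.9 and 19.8 TPM in controls and 15.5 TPM in both knockouts (log2 fold change -0.52, limma adjusted p = 0.077). BMI1 made up 17.7% and 10.6% of the summed TPM of the 6 PCGF genes in controls, against 6.46% and 4.45% in knockouts. PCGF1, which marks a variant PRC1, held 22.1% and 27.6% in controls against 29.6% and 35.6% in knockouts, with no PCGF gene passing the test.

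CBX8 was the member with the lowest level in controls and knockouts. CBX8 (chromosome 17, 79792132 to 79801683, minus strand), the reader of H3K27me3 in canonical PRC1, measured 6.74 and 6.50 TPM in controls against 5.66 and 5.47 TPM in knockouts. Replicates were close and the groups did not overlap, with a log2 fold change of -0.22 (SE 0.13, 95% interval -0.55 to 0.12, limma adjusted p = 0.28).

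**Figure D2:**
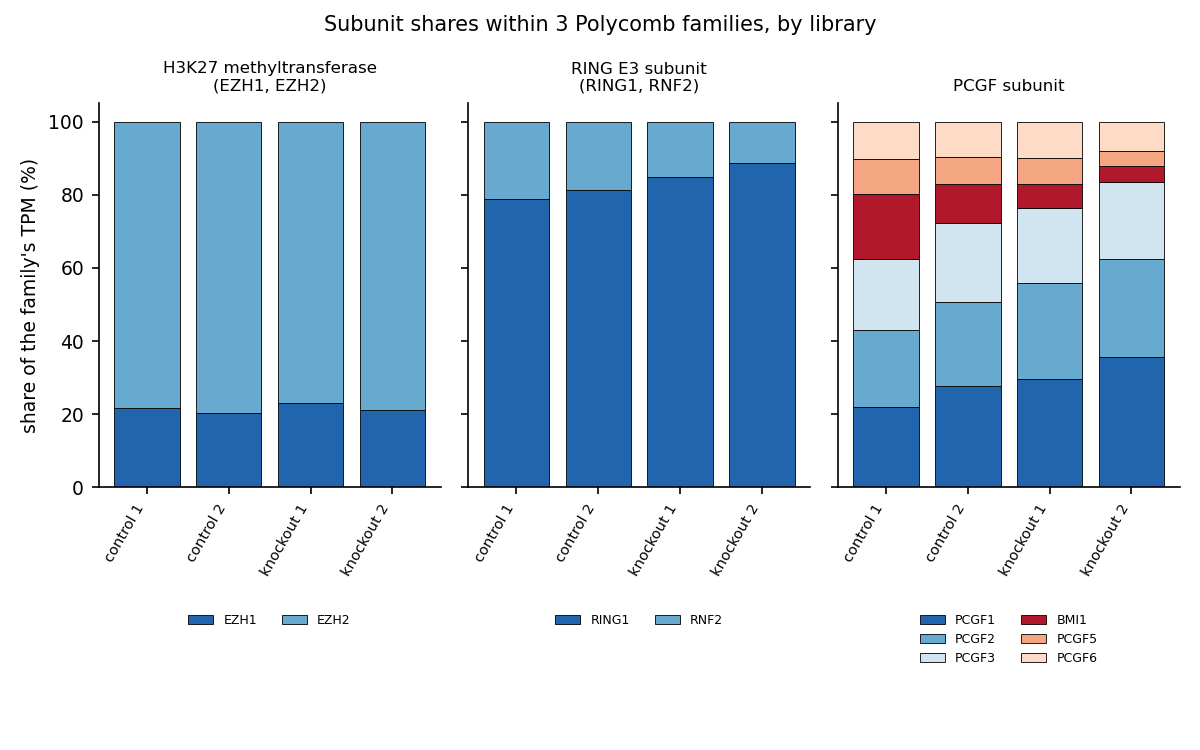
Share of each subunit (percent of the summed TPM of its family) in each library for the EZH, RING and PCGF families. The EZH2 share stays between 76.9% and 79.6%, while the shares of RNF2 and BMI1 are smaller in both knockouts than in both controls. The part of transcript GC content in these shares was not tested.

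Among the other Polycomb genes, PHC2 and CBX6 rose and RBBP4 fell. Of 42 further subunits 40 were tested, and 2 rose, 1 fell and 37 did not pass the test, with a median log2 fold change of -0.12. The share called among all tested genes was 17.7%, with 9.06% rising and 8.67% falling. PHC2, a polyhomeotic subunit that lets canonical PRC1 polymerise, rose from 69.9 and 67.7 TPM in the controls to 127 and 155 TPM in the knockouts (log2 fold change 1.02, SE 0.11, limma adjusted p = 0.016). Both knockouts stood far above both controls, and PHC2 held 80.5% and 81.5% of the PHC family in controls against 89.5% and 91.6% in knockouts. CBX6 rose from 45.6 and 43.7 TPM to 58.6 and 63.9 TPM, a log2 fold change of 0.45 (limma adjusted p = 0.034). With the median of each chromosome removed its log2 fold change was 0.17 (adjusted p = 0.17). RBBP4, a histone-binding subunit that PRC2 shares with other complexes, fell from 76.8 and 66.9 TPM to 46.7 and 35.5 TPM, a log2 fold change of -0.80 (limma adjusted p = 0.036). Its paralog RBBP7 was more abundant, at 170 and 182 TPM in controls and 163 and 153 TPM in knockouts (log2 fold change -0.15, adjusted p = 0.19). None of these 3 calls held without control 1, without control 2 or with no filter on low values, and with a constant variance prior those of RBBP4 (adjusted p = 0.067) and CBX6 (0.070) were lost.

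By group, the 9 tested PRC2 core and accessory subunits beyond the members had 0 rises and 1 fall, RBBP4, with a median of -0.33. PHF1, a Polycomb-like protein that directs PRC2 to chromatin, stood at 18.4 and 18.2 TPM in controls and 25.6 and 37.4 TPM in knockouts (log2 fold change 0.73, limma adjusted p = 0.062). MTF2, its paralog, had the opposite order, at 23.0 and 23.9 TPM against 19.1 and 15.1 TPM (log2 fold change -0.44, adjusted p = 0.089). The value of MTF2 was -0.09 with the GC trend removed, -0.28 without knockout 2 and -0.61 without knockout 1. That of PHF1 was 0.46 without knockout 2 and 0.99 without knockout 1, and PHF1 passed with a replicate block (limma adjusted p = 0.045). EZHIP, an inhibitor of PRC2, was listed at 0 in all libraries. Of 10 canonical PRC1 subunits 2 rose and 0 fell, with a median of -0.04. SCML2, a sex-comb protein, had a log2 fold change of -0.49 (limma adjusted p = 0.061), which was -0.22 with the GC trend removed and -0.32 with a pseudocount of 5. The 16 tested variant PRC1 subunits had 0 calls and a median of -0.12. An unadjusted p under 0.05 was found in 6 of them (37.5%, against 38.3% of all tested genes). Those with the smallest p were L3MBTL2 (log2 fold change 0.37, limma adjusted p = 0.054) and RYBP (-0.64, adjusted p = 0.066), a subunit that stimulates H2A ubiquitination. L3MBTL2 was at 0.09 with chromosome medians removed. It passed with median ratio scaling (0.40, limma adjusted p = 0.041) and with quantile normalization (0.43, adjusted p = 0.038). RYBP was at -0.39 with the GC trend removed, and passed with a replicate block (-0.64, limma adjusted p = 0.042). The 5 PCGF genes other than BMI1 had 0 calls and 0 unadjusted p-values under 0.05, with PCGF5 at a log2 fold change of -0.67 (adjusted p = 0.18) and PCGF1 at 0.26 (adjusted p = 0.19). PCGF5 was at -0.22 with the GC trend removed, -0.38 without control 1, -0.33 without knockout 2 and -1.004 without knockout 1. With a replicate block PCGF5 passed (-0.67, limma adjusted p = 0.036). PCGF1 was at 0.13 without knockout 2 and 0.40 without knockout 1.

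**Figure D3:**
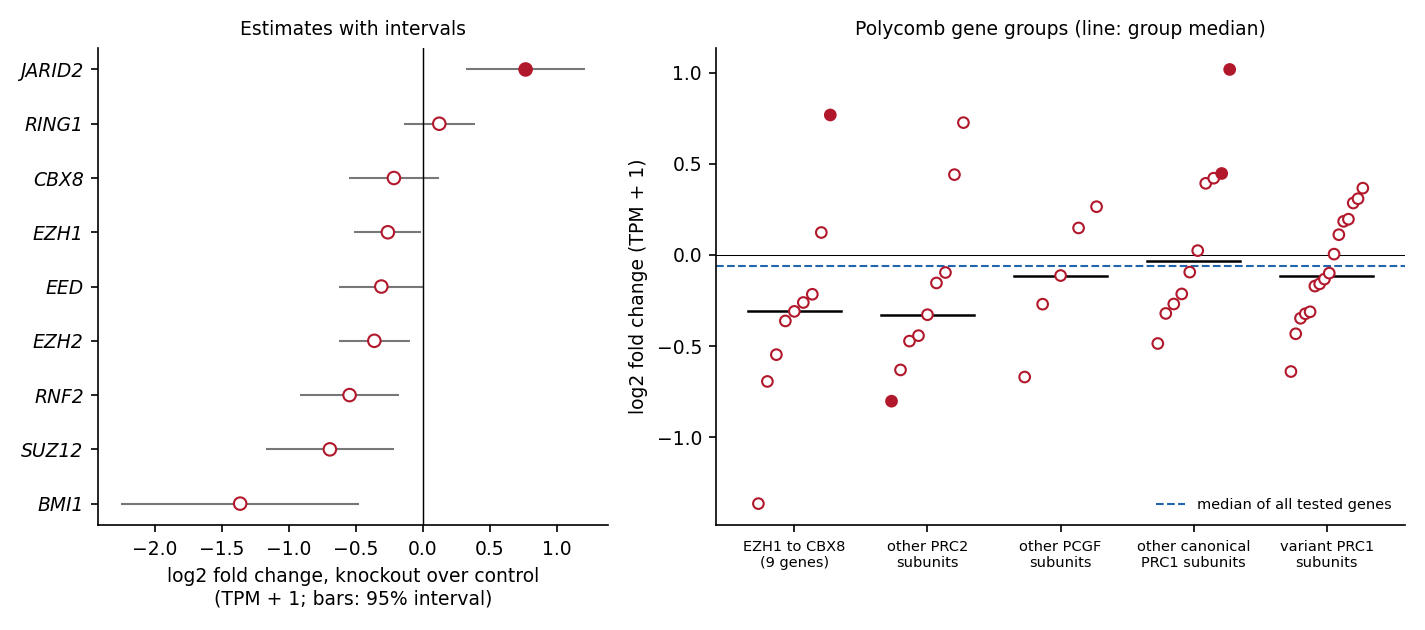
Left, log2 fold change of the 9 genes with 95% intervals; right, log2 fold changes of the 9 genes and of 40 further Polycomb genes by group, with group medians and the median of all tested genes (-0.06, dashed). Filled points passed limma's adjusted p of 0.05: JARID2, PHC2 and CBX6 upward and RBBP4 downward.

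Genes for removal of the Polycomb histone marks and for H3K4 and H3K36 methylation, with partner genes, were examined beside them. Of 13 tested genes for enzymes that remove H2A ubiquitin or H3K27 methyl groups and for their partners, 0 rose and 2 fell, with a median of -0.21. In all tested genes these shares were 9.06% and 8.67%. HCFC1, a host cell factor that binds BAP1, fell from 63.0 and 60.1 TPM to 44.0 and 44.5 TPM (log2 fold change -0.47, limma adjusted p = 0.026), and ASXL1, a cofactor of the BAP1 deubiquitinase, from 58.8 and 57.7 TPM to 47.0 and 45.6 TPM (-0.32, adjusted p = 0.047). The call of HCFC1 was lost with a constant variance prior (adjusted p = 0.060), with no filter on low values (0.065) and without either control. The call of ASXL1 was lost under 7 of 13 alternatives, among them median ratio scaling (adjusted p = 0.060), quantile normalization (0.056) and a replicate block (0.076). USP16, an H2A deubiquitinase, had a log2 fold change of -0.53 (limma adjusted p = 0.062), which was -0.12 with the GC trend removed. With a replicate block USP16 passed (adjusted p = 0.045). MBD6 had a log2 fold change of -0.34 (adjusted p = 0.073), and passed with the GC trend removed (-0.46, adjusted p = 0.030). Of 16 methyltransferase genes for H3K4 and H3K36 and their partners, 0 rose and 1 fell, with a median of -0.19. The gene that fell was RBBP5, a subunit of the H3K4 methyltransferase complexes, from 27.8 and 26.4 TPM to 18.0 and 16.6 TPM (log2 fold change -0.62, limma adjusted p = 0.026). That call was lost with no filter (0.068) and without either control.

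Developmental genes that Polycomb is known to silence in many cell types were mostly below the filter. Of 31 such genes 6 were tested, 24 stayed under 1 TPM in all libraries and 17 were listed at 0 in all of them. FOXA2, a forkhead factor of endodermal tissues, rose from 10.9 and 9.46 TPM in the controls to 19.7 and 28.0 TPM in the knockouts (log2 fold change 1.14, limma adjusted p = 0.029), the 1 call among the 6. It was lost with a constant variance prior (adjusted p = 0.052), with no filter on low values (0.088) and without either control. TBX15 had a log2 fold change of 0.46 (adjusted p = 0.080). NEUROG2 was at 0.517 and 0.914 TPM in controls and 1.64 and 1.59 TPM in knockouts, and so passed the filter only through the knockouts. The tested 6 passed a filter that keeps expressed genes, so they do not stand for the silent ones. Of 39 HOX genes 30 were tested, 0 rose and 7 fell, all 7 in the HOXA cluster, against 9.06% rising and 8.67% falling among all tested genes. HOXA9 stood at 94.4 and 83.7 TPM in controls and 39.9 and 33.3 TPM in knockouts (log2 fold change -1.26, limma adjusted p = 0.014), and its reads may be shared with the overlapping HOXA10. The call of HOXA9 was lost with no filter (adjusted p = 0.060) and without either control. Of the 20 tested HOX genes outside HOXA 0 passed, and 3 (15%) had an unadjusted p under 0.05, against 38.3% of all tested genes.

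The cell-cycle genes CCNA2, MCM6 and TYMS fell in the knockouts. Of 17 E2F and proliferation genes 0 rose and these 3 fell, CCNA2 (log2 fold change -0.77), MCM6 (-0.68) and TYMS (-0.67), with limma adjusted p-values of 0.016, 0.020 and 0.023. Among all tested genes 17.7% were called, 9.06% rising and 8.67% falling. With no filter on low values or without either control these 3 calls were lost, that of TYMS also with a constant variance prior (adjusted p = 0.056). TYMS overlaps ENOSF1 and is uncertain to that extent. In 13 of the 17 both knockouts lay below both controls, which 39% of tested genes did. The list summed to 2650 and 2562 TPM in controls and 2202 and 1932 TPM in knockouts. This sum was lowest in knockout 2, as were EED and SUZ12, whereas EZH2 was lowest in knockout 1. The part of proliferation in the levels of EZH2 and EED was not tested.

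The chromosomal surroundings differed between members. The 20 nearest tested genes of JARID2, 10 on either side, had a median log2 fold change of -0.25, and JARID2 lay above all 20 of them. JARID2 ends 2.70 Mb before DEK on the same chromosome, and the 20 neighbours of DEK had a median of -0.43, with 5 falling and 0 rising. Several genes between JARID2 and DEK are in both sets of neighbours. BMI1 lay in a stretch with a median of -0.39, where 4 neighbours fell and 0 rose, and BMI1 was below 19 of its 20 neighbours. For EED the value of -0.31 equalled the median of its neighbours to 2 decimals, with 10 of them below and 10 above. SUZ12 and RNF2 each lay below 18 of 20 (neighbour medians -0.20 and -0.29), and RING1 lay among its neighbours (median 0.04). EZH1 and CBX8 lay below most of their neighbours, 19 and 17 of 20, whose medians were 0.29 and 0.36. EZH2 lay below 17 of its 20 neighbours (median 0.01). Chromosome medians also differed between knockouts. The median of chromosome 7, which carries EZH2, was -0.18 in knockout 1 and 0.02 in knockout 2 against the control mean, and EZH2 itself was at -0.47 and -0.26. On chromosome 1, which carries RNF2, the medians were -0.10 and -0.26, and RNF2 was at -0.41 and -0.68. With chromosome medians removed, EZH2 passed at a log2 fold change of -0.34 (limma adjusted p = 0.042), RNF2 was at -0.43 (adjusted p = 0.058) and JARID2 at 0.81 (adjusted p = 0.041).

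**Figure D4:**
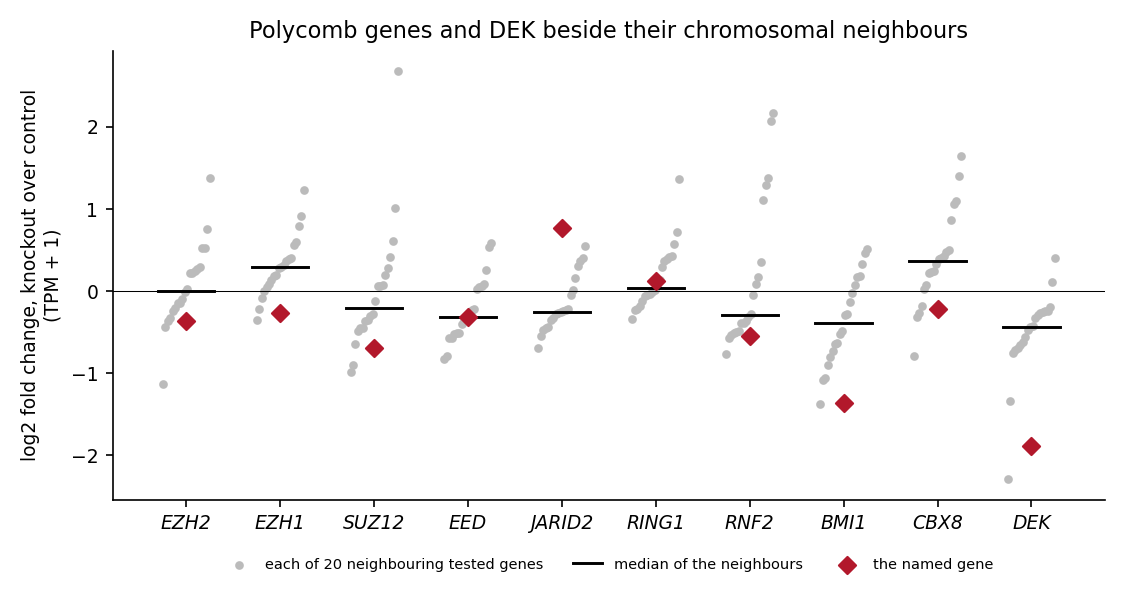
Log2 fold change of each Polycomb gene and of DEK (diamonds), of their 20 nearest tested genes (grey points) and the median of those neighbours (line). JARID2 lies above all 20 neighbours, whose median is -0.25, and EED lies at the median of its own.

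Median fold changes were higher in genes with GC-richer transcripts, and several members have AT-rich transcripts. With tested genes divided into 5 equal groups by GC content of the longest annotated transcript, the median log2 fold change was -0.33 in the group with the lowest GC content and 0.11 in that with the highest. SUZ12 (38.0% GC), RNF2 (38.1%), BMI1 (39.1%) and EED (33.0%) fall in the lowest group, EZH2 (42.7%) in the next, JARID2 (50.2%) and EZH1 (50.5%) in the middle, CBX8 (57.5%) above that and RING1 (61.6%) in the highest. EED thus lay near the median of its GC group, SUZ12, RNF2 and BMI1 lay below it, and JARID2 lay above the middle group's median of 0.01. With the GC trend of each library removed, the log2 fold change was 0.74 for JARID2 (limma adjusted p = 0.046), -1.06 for BMI1 (adjusted p = 0.070), -0.35 for SUZ12 (0.10), -0.20 for RNF2 (0.21), -0.20 for EZH2 (0.29) and 0.16 for EED (0.38). EZH1 and CBX8 were at -0.29 and -0.32. The values of SUZ12, RNF2 and EZH2 were thus smaller by over 1.5 times, RING1 was at 0.00, and EED changed sign. The part of GC content in these differences was not tested beyond these values.

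**Figure D5:**
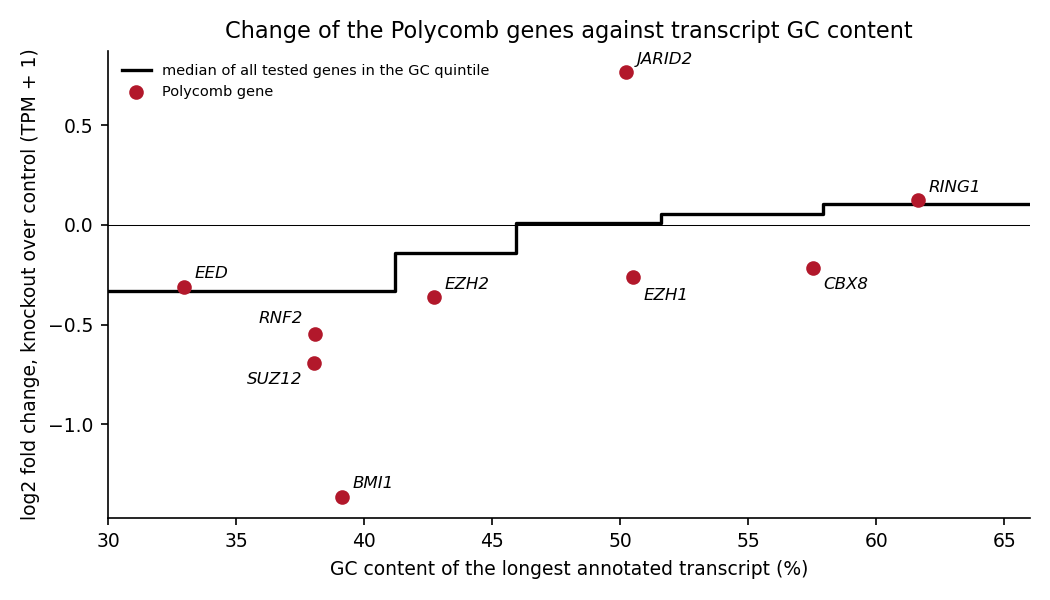
Log2 fold change of the 9 Polycomb genes against the GC content (%) of their longest annotated transcript, with the median of all tested genes in each of 5 equal GC groups as a stepped line. The line climbs from -0.33 to 0.11, EED and RING1 lie near it, BMI1 lies far below it and JARID2 far above.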

How the data were processed

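Polyadenylated RNA of 4 libraries was measured. Titles gave the group and replicate number. The authors deposited 1 table of TPM with a column per library. The submitters' processing notes name STAR 2.7.8a and cutadapt 1.18 as well as DESeq2 1.36.0 and featureCounts 2.0.1, and the build hg38, with no role for each. For annotation, gene length and strand the setting is not given in the sources used here.

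A gene was tested if 2 or more libraries had 1 TPM or more, which 15815 did. In R 4.3.3, limma 3.58.1 compared the groups on log2(TPM + 1), with no covariate and with the variance prior trended on the mean. P-values were adjusted over all 15815 genes (Benjamini-Hochberg, threshold 0.05). The pseudocount understates changes of low genes. The procedure was tested on simulated data.

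Positions, overlaps and GC content are from GENCODE release 29 (GRCh38), matched by symbol (54330 by name, 1562 through current symbols). Read numbers are TPM times annotated exon length, divided by the step of 1 read. From 46.0% to 50.8% of values under 200 reads were within 0.02 of a whole number, so depth is approximate. The counting error of each member's lowest library was 2.12% to 6.77%.

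The members and gene lists were chosen with earlier results of these data known. The genes named are the members, DEK, list genes past the threshold, up to 2 further genes per list with the smallest p (at most 3 genes from the last lists), genes of the subunit families and overlapping neighbours. RBBP7, SUZ12P1 and EZHIP were added after their values were seen.

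Other settings tried were the filter, the pseudocount, scaling by median ratio, the variance prior, quantile normalization, a replicate block, GC content, chromosome medians and leaving out each library. A result that the rule would name is withheld and is not reported here.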

Additional observations from a re-analysis of the deposited data

How the results depend on the processing

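The count of 2804 called genes (1 of the 9 members, 3 of the 40 further Polycomb genes) was within 1.5 times of that value with pseudocounts of 0.1 and 5, median ratio scaling, quantile normalization, GC trend removal and chromosome medians removed. With no filter on low values 26 genes were called, 0 of them members and 0 further Polycomb genes (limma, unadjusted p under 0.05 in 6 and 14). With a constant variance prior there were 1437, 0 and 1 (unadjusted p under 0.05 in 5 members). Quantile normalization called 5 further Polycomb genes, and chromosome medians removed gave 2 members. Leaving out 1 library gave 0 to 5289 genes, 0 to 4 members and 0 to 11 further Polycomb genes. The counts of 0 were those without control 1 or control 2 (limma, unadjusted p under 0.05 in 2821 and 3194 genes), and the lone library is there assumed to vary like the other group. The cause of these differences was not tested. Of 117 values of single members under alternatives, 105 kept direction and side of the threshold, 7 newly passed, 4 no longer passed (JARID2 each time) and 1 changed sign, EED at 0.16 with the GC trend removed.

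The replicate numbers did not clearly pair the libraries: across genes, replicate 1 minus replicate 2 correlated at 0.099 between the groups. With the replicate block 2971 genes, 3 members (JARID2, SUZ12 and BMI1) and 6 further Polycomb genes were called. Depth limits CBX8 most, with approximately 219 to 284 reads.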
